A study of Homo sapiens with 6 samples.

Results

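Histone lysine methyltransferases and demethylases, the enzymes that add methyl groups to lysines of histone tails and take them off, were followed in C4-2 cells treated with IPI-9119. The group was a list of 44 gene symbols, 26 methyltransferases and 18 demethylases, matched by Ensembl identifier to the 14456 genes of the deposited table, and all 44 had a row and passed the filter on low values (a mean of at least 10). C4-2 is an established prostate cancer line, a castration-resistant descendant of LNCaP, and IPI-9119 is an inhibitor of fatty acid synthase. Cells in RPMI with fetal bovine serum received IPI-9119 at 100 nM or DMSO at 0.1% for 6 days, and polyA-selected RNA was sequenced from 3 libraries of each group. Both groups were the same line with no genetic change named in the labels, and the DMSO libraries were the controls. The labels do not say whether the 3 libraries of a group came from separate cultures, so the p-values measure the spread between libraries. No library batch is named, so one that followed the groups cannot be told apart from the treatment.

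Methylation of a histone lysine does not change its charge but is read by proteins that bind it, so its effect depends on the residue. Trimethylation of H3K4 marks active promoters and monomethylation of H3K4 marks enhancers, H3K36 and H3K79 methylation mark transcribed gene bodies, and H3K9 and H3K27 methylation mark silent chromatin, as does H4K20 trimethylation. Most of the writers carry a SET domain and need S-adenosylmethionine. The erasers are either flavin-dependent (LSD1 and its relative) or JmjC enzymes that need iron, oxygen and 2-oxoglutarate.

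The 6 libraries held 19090749 to 23448035 reads, with the 3 IPI-9119 libraries the shallowest. Values are normalised counts, that is, counts per gene scaled by a library's own size factor. Log2 fold changes are IPI-9119 minus DMSO on log2(value + 1), which understates the change of low genes, and are given with the standard error (SE). A gene is called where limma's Benjamini-Hochberg adjusted p over all 14437 genes tested lay under 0.05. Of all genes tested 62.8% were called, 31.3% higher and 31.4% lower. In a bulk measurement, fewer cells of a kind and less RNA per cell cannot be told apart. All 8 luminal prostate markers had a row in the table, and 7 of them fell and 1 rose, with KRT18 at -1.02 and TMPRSS2 at -1.0. None of 3 basal and none of 5 leukocyte and endothelial markers had a row, and the 2 fibroblast markers with one (of 5) summed to 78.3 to 95.5 in DMSO and 93.5 to 117 in IPI-9119 libraries.

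Of the 44 enzymes, 32 fell, 3 rose and 9 did not pass the threshold. The median log2 fold change was -0.75, against 0.002 over all genes tested. Falls of 1 log2 unit or more were called for 16 of the 44, where 9.27% of all genes tested had one. All 3 IPI-9119 libraries lay below all 3 DMSO libraries for 35 enzymes (33.9% of all genes) and above them for 3 (34.0% of all genes). The methyltransferases held all 3 rises, SUV39H2, EZH2 and SUV39H1, beside 18 falls and 5 not past the threshold. Demethylases gave no rise, 14 falls and 4 not past the threshold. Summed over the 44 genes, the normalised counts were 45825 to 51588 in the DMSO libraries and 31101 to 36564 in the IPI-9119 libraries.

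**Figure D1:**
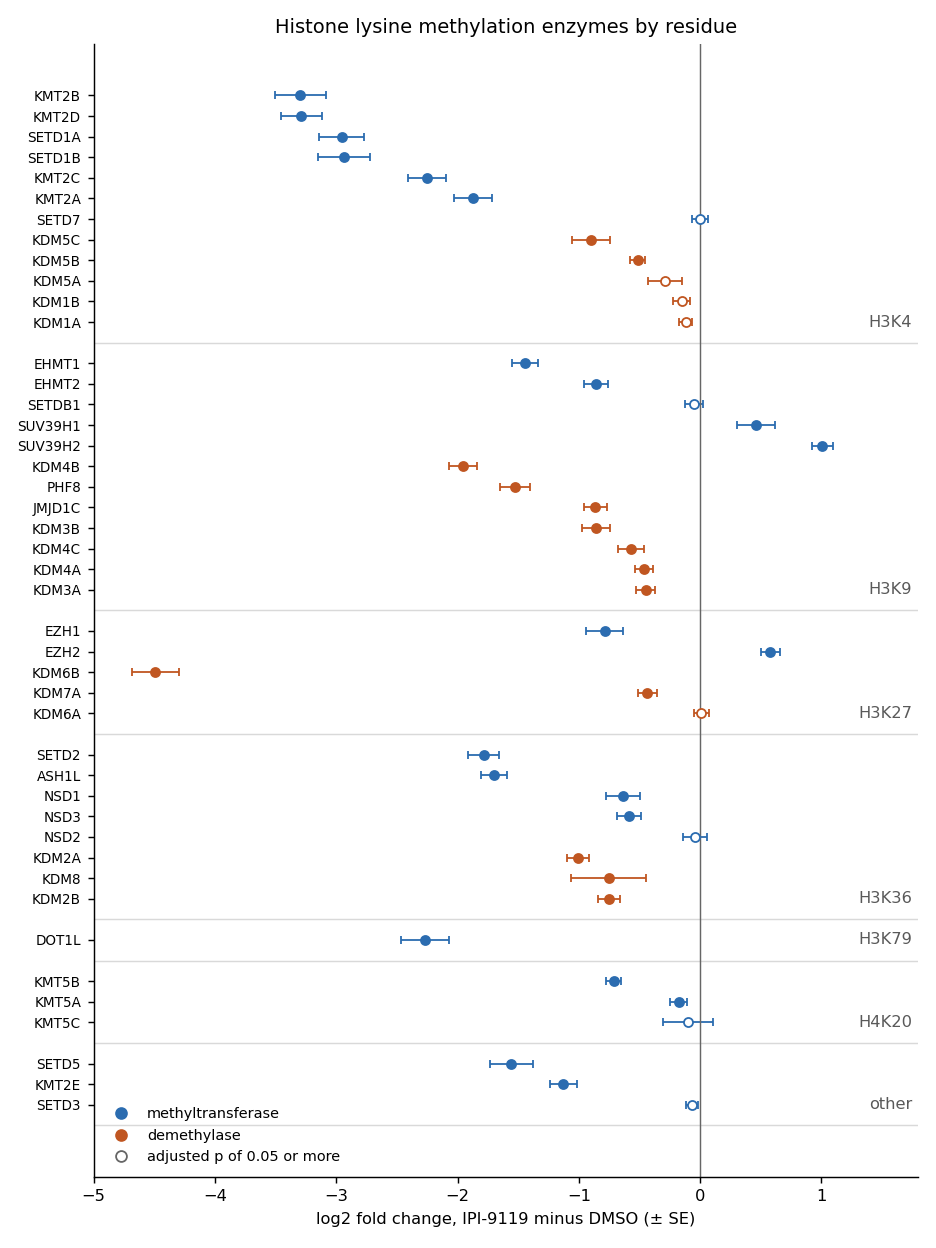
Log2 fold change (IPI-9119 minus DMSO, horizontal axis, bars show the SE, 3 libraries a group) of each of the 44 enzymes, grouped by the residue they act on. Filled points passed the threshold. KDM6B (-4.49) lies farthest to the left, followed by KMT2B, KMT2D, SETD1A and SETD1B at -3.30 to -2.94, and SUV39H2, EZH2 and SUV39H1 are the filled points to the right of 0.

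Of all residues and classes, the H3K4 methyltransferases had the lowest median (-2.94, 6 of 7 falling and none rising). KMT2A to KMT2D, SETD1A and SETD1B, the catalytic subunits of the COMPASS family, were the 6, at -3.30 to -1.87. KMT2B, the enzyme of the MLL2 complex (chr19:35718019-35738878 on GRCh38), had normalised counts of 129, 170 and 163 in DMSO libraries 1 to 3 and 12.7, 17.5 and 14.3 in IPI-9119 libraries 1 to 3, a log2 difference of -3.30 (SE 0.21, adjusted p 9.99e-09), or 9.82-fold lower. KMT2D, a monomethyltransferase of enhancers (chr12:49018975-49059774), went from 357, 529 and 369 to 42.2, 45.8 and 36.3 (-3.29, SE 0.17, adjusted p 8.79e-10). In both genes the highest treated library lay far under the lowest control.

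KMT2C, the paralogue of KMT2D at enhancers, had 745, 1224 and 819 in DMSO and 180, 196 and 192 in IPI-9119 libraries (-2.25, SE 0.15, adjusted p 2.21e-07). KMT2A, the enzyme of the MLL1 complex, had 518, 674 and 553 against 121, 167 and 191 (-1.87, SE 0.15, adjusted p 4.41e-07). These 2 kept the most transcript of the 6, 20.4% and 27.5% of the DMSO mean, against 9.61% for KMT2B and 9.9% for KMT2D. By the annotation, 17.9% of the KMT2A exons are shared with AP001267.5 on the same strand, so its count is less certain.

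SETD1A and SETD1B, which trimethylate H3K4 at promoters, both fell. SETD1A had 227, 320 and 231 in DMSO and 29.5, 39.3 and 28.6 in IPI-9119 libraries (-2.96, SE 0.18, adjusted p 7.49e-09). SETD1B had 224, 261 and 231 against 29.5, 21.8 and 42.9 (-2.94, SE 0.21, adjusted p 3.51e-08). For all 6 genes the second DMSO library was the highest and the first the lowest of their group. Without the second DMSO library all 6 were still called. SETD7, which monomethylates H3K4 in vitro and many other proteins, stood apart from the 6 with 7142, 7538 and 8114 in DMSO and 6810, 7863 and 8100 in IPI-9119 libraries. Its log2 fold change was -0.003 (SE 0.07, adjusted p 0.968), and the groups overlapped. Per kilobase of its longest coding transcript, SETD7 was the most abundant of the 44 (1032 normalised counts per kb in DMSO), and KMT2B at 18.2 and KMT2D at 21.5 were among the lowest.

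**Figure D2:**
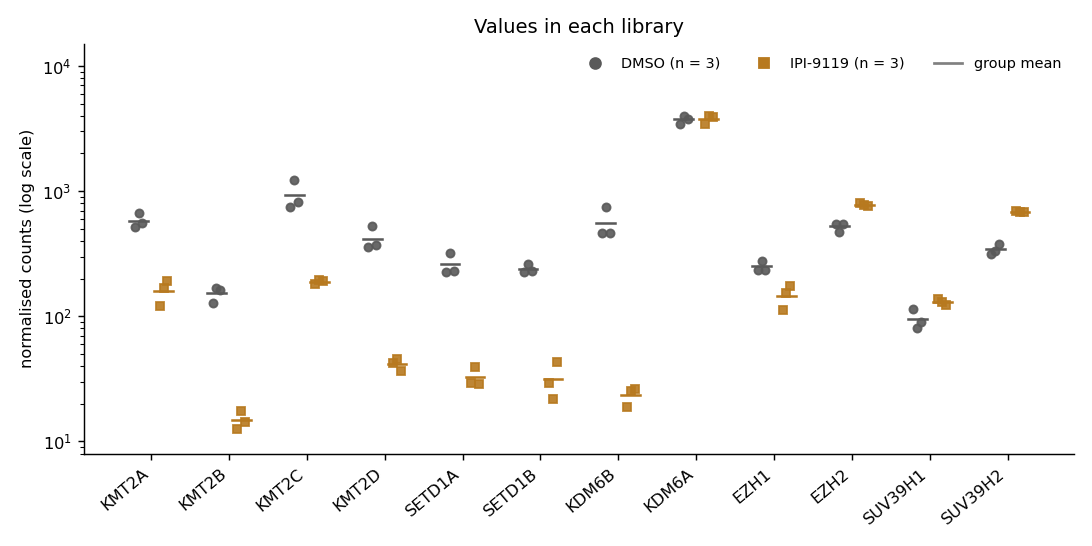
Normalised counts (vertical axis, log scale) of 12 enzymes in each of the 3 DMSO (circles) and 3 IPI-9119 (squares) libraries, with a line at each group mean. The groups are separated for all genes shown except KDM6A, with IPI-9119 lower for KMT2A to KMT2D, SETD1A, SETD1B, KDM6B and EZH1 and higher for EZH2, SUV39H1 and SUV39H2.

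Of the 5 demethylases of H3K4, 2 fell and none rose, with a median of -0.29. KDM5C, an X-linked JmjC demethylase of di- and trimethylated H3K4, had 1237, 1438 and 1431 in DMSO and 557, 879 and 798 in IPI-9119 libraries (-0.90, SE 0.15, adjusted p 0.000781). KDM5B, its paralogue, fell by 0.52 (SE 0.06, adjusted p 7.56e-06). KDM5A, also of this family, had a value of -0.29 (adjusted p 0.102), with overlapping groups. It was called lower without DMSO replicate 1 (-0.43, adjusted p 0.011), without IPI-9119 replicate 3 (-0.41, adjusted p 0.0185) and by DESeq2 (adjusted p 0.0401). The flavin enzymes KDM1A (LSD1) and KDM1B (LSD2) did not pass the threshold. KDM1A had 1481, 1551 and 1470 against 1367, 1385 and 1391 (-0.12, SE 0.05, adjusted p 0.0667). KDM1B had 1107, 1306 and 1195 against 1041, 1094 and 1103 (-0.15, SE 0.07, adjusted p 0.0637), and it was called by edgeR (adjusted p 0.048) and without DMSO replicate 1 (-0.21, adjusted p 0.0235). In both the treated libraries lay just below the controls.

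On H3K9 the methyltransferases split and the demethylases all fell. SUV39H2 and SUV39H1, the trimethylating enzymes of constitutive heterochromatin, rose, EHMT1 and EHMT2, which make mono- and dimethylated H3K9, fell, and SETDB1, which silences retroelements, did not pass the threshold. SUV39H2 (chr10:14878820-14904315) had 317, 332 and 377 in DMSO and 697, 680 and 685 in IPI-9119 libraries (1.01, SE 0.08, adjusted p 1.49e-07), a 2.01-fold rise and the largest among the 44. SUV39H1 (chrX:48695554-48709012) had 114, 81.1 and 90.0 against 137, 131 and 122 (0.46, SE 0.15, adjusted p 0.0182). The SUV39H1 groups did not overlap, but the gene was no longer called once DMSO replicate 2 (0.36, adjusted p 0.0815) or DMSO replicate 3 (0.43, adjusted p 0.0584) was left out, and 20.3% of its exons are shared with the antisense gene AC231533.1, whose reads cannot be told apart without strand.

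EHMT1 (GLP) had 652, 683 and 566 in DMSO and 203, 240 and 254 in IPI-9119 libraries (-1.44, SE 0.10, adjusted p 3.97e-08). EHMT2 (G9a), its partner in a heterodimer, had 889, 920 and 826 against 428, 575 and 456 (-0.86, SE 0.10, adjusted p 3.88e-06). Neither gene's groups overlapped. SETDB1 had a value of -0.05 (SE 0.08, adjusted p 0.591), with overlapping groups, and 13.4% of its exons lie opposite CERS2.

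Falls among the 7 H3K9 demethylases ran from -1.95 to -0.45 (median -0.86), and the treated libraries lay below the controls for all 7. KDM4B, which also acts on H3K36 and is a known target of hypoxia and hormone signalling, had 1034, 1229 and 929 in DMSO and 234, 286 and 301 in IPI-9119 libraries (-1.95, SE 0.11, adjusted p 5.75e-09). Its paralogues KDM4C and KDM4A fell by 0.57 (adjusted p 0.000387) and 0.47 (adjusted p 9.71e-05), and 40.2% of the KDM4A exons are shared with AL451062.3 on the same strand. PHF8, which acts on H3K9 and H4K20, was the most abundant of the 7 per kilobase in DMSO (469 normalised counts per kb), and went from 2664, 2963 and 2909 to 791, 1045 and 1159 (-1.53, SE 0.12, adjusted p 5.99e-06). In the KDM3 family, KDM3B had 1468, 1702 and 1593 in DMSO and 712, 917 and 1018 in IPI-9119 libraries (-0.86, SE 0.12, adjusted p 9.37e-05). JMJD1C, a family member whose demethylase activity is debated, had 748, 910 and 801 against 393, 483 and 474 (-0.86, SE 0.10, adjusted p 2.71e-06). KDM3A, induced by hypoxia in many cells, had 805, 842 and 872 against 551, 652 and 647 (-0.45, SE 0.08, adjusted p 0.000202). No library of one group reached into the other for these 3 genes.

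The largest change of the 44 was on H3K27. KDM6B (JMJD3; chr17:7839904-7854796), an inducible JmjC enzyme that removes the Polycomb mark from H3K27, had 466, 746 and 465 in DMSO and 19.0, 25.1 and 26.4 in IPI-9119 libraries. This is a log2 difference of -4.49 (SE 0.20, adjusted p 2e-10), 22.5-fold lower on this scale, and 4.2% of the DMSO mean was left. In recovered reads, the 3 IPI-9119 libraries held 65 in all and the 3 DMSO libraries 1818. KDM6A (UTX), its X-linked paralogue and a subunit of the KMT2C and KMT2D complexes, had 3472, 3976 and 3792 against 3468, 3959 and 3893, a value of 0.01 (SE 0.06, adjusted p 0.897) with overlapping groups. KDM7A, which acts on H3K9 and H3K27, fell by 0.44 (SE 0.08, adjusted p 0.000234).

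Opposite changes were found for the alternative catalytic subunits of Polycomb repressive complex 2 (PRC2), which methylates H3K27. EZH2 (chr7:148807383-148884321), the subunit of dividing cells, had 547, 472 and 549 in DMSO and 803, 776 and 758 in IPI-9119 libraries (0.58, SE 0.08, adjusted p 1.89e-05), a 1.49-fold rise. EZH1 (chr17:42700275-42745049), the subunit prominent in resting cells, had 236, 278 and 236 against 112, 153 and 175 (-0.79, SE 0.15, adjusted p 0.000465). Neither gene's groups overlapped. Per kilobase of the longest coding transcript the mean level of EZH2 was 198 in DMSO and 295 in IPI-9119 libraries, and that of EZH1 was 54.1 and 31.7. The 16 cell cycle markers all rose in these libraries (median 2.26), with CCNA2 at 3.73, AURKA at 2.84 and CDC45 at 2.81, and their summed counts went from 8689 to 9056 in DMSO to 27677 to 29570 in IPI-9119 libraries; their part in the rises of EZH2, SUV39H1 and SUV39H2 was not tested.

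The promoter windows of the 3 genes that rose and of the 2 that fell most are shown, to set beside these values the letters around their start sites. RefSeq windows (GRCh38.p14) of 250 bases before and 50 after a start site were matched for 41 of the 44 genes, taking the start nearest to that of the annotation. Capitals mark 3 kinds of motif searched on both strands: E2F letters (TTTCCCGC, TTTGGCGC, TTTCGCGC or TTTGCCGC), CCAAT, and the letters TTTGAA of a cell cycle genes homology region (CHR). The windows are SUV39H2 at chr10:14878616-14878915 (plus strand), EZH2 at chr7:148884242-148884541 (minus strand), SUV39H1 at chrX:48695304-48695603 (plus strand), KDM6B at chr17:7839667-7839966 (plus strand) and KMT2B at chr19:35717753-35718052 (plus strand), each written 5′ to 3′ along its gene.
SUV39H2: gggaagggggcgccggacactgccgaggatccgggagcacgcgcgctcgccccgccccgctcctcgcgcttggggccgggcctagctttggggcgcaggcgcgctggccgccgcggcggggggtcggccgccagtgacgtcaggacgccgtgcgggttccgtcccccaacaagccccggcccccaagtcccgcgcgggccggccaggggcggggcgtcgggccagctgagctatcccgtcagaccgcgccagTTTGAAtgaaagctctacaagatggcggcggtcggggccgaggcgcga
EZH2: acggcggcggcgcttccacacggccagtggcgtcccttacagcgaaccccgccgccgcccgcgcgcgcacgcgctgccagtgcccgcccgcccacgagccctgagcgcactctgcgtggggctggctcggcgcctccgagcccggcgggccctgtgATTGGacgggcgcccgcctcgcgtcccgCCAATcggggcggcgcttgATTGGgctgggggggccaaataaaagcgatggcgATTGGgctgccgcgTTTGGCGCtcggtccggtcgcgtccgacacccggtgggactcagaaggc
SUV39H1: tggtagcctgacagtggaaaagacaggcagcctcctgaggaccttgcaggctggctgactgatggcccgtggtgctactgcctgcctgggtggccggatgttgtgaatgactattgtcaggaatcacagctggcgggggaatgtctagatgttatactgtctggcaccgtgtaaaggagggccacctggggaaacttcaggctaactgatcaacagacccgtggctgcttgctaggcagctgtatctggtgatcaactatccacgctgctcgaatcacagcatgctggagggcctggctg
KDM6B: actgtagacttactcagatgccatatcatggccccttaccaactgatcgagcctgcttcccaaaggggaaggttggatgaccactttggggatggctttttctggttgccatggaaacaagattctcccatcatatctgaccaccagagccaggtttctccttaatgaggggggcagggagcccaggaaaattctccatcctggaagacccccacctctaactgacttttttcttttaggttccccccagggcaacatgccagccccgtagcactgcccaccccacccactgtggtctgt
KMT2B: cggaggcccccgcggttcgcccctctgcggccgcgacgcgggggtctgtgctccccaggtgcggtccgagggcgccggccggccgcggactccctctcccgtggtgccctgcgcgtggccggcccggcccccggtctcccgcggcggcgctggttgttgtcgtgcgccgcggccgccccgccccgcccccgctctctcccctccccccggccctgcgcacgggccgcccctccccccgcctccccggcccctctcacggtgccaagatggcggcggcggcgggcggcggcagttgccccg

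The EZH2 window held the E2F letters TTTGGCGC from base 2 after the start and CCAAT, on either strand, in 4 places that begin at -94, -66, -47 and -13. The SUV39H2 window held TTTGAA from base 3, and the windows of SUV39H1, KDM6B and KMT2B held none of the motifs. EZH2, SUV39H1 and KDM6B each have 2 RefSeq starts, and only the motifs of the start nearest the annotation are given. The windows shown for SUV39H1 and KDM6B held 7 and 2 CpG sites, against a median of 30 over the 41 matched windows. Over the 41 matched windows, 4 had an E2F match (9.76%, against 3.31% of all 35116 windows), 12 had CCAAT (29.3% against 34.6%) and 4 had TTTGAA (9.76% against 15.2%). These shares do not compare like sequence. The matched windows had a median GC content of 67.0% and 30 CpG sites, against 58.7% and 14 over all windows. The starts used for SETD7 and KDM4C lay 50480 and 37110 bases from the annotated start. By direction, an E2F match was found in 1 of 3 windows of genes that rose, 1 of 29 that fell and 2 of 9 not past the threshold. In the same order, CCAAT was found in 1, 7 and 4 windows and TTTGAA in 1, 2 and 1. With 3 windows of genes that rose, each such share rests on 1 window, and a link of motifs to direction was not tested.

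H3K36 methyltransferases gave 4 falls of 5 and no rise. SETD2, the trimethylating enzyme of transcribed gene bodies, had 540, 660 and 499 in DMSO and 135, 181 and 175 in IPI-9119 libraries (-1.79, SE 0.13, adjusted p 4.14e-08). ASH1L, a dimethyltransferase, had 760, 967 and 832 against 227, 278 and 279 (-1.70, SE 0.11, adjusted p 8.34e-09). The treated libraries of both lay well below the controls. Changes in the NSD family were smaller. NSD1 had 1110, 1373 and 1392 in DMSO and 666, 887 and 962 in IPI-9119 libraries (-0.63, SE 0.14, adjusted p 0.00367). NSD3 had 669, 752 and 674 against 395, 517 and 492 (-0.58, SE 0.10, adjusted p 0.000142). NSD2, known for its translocation in myeloma, had 633, 738 and 618 against 546, 693 and 698, a value of -0.04 (SE 0.10, adjusted p 0.732) with overlapping groups.

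All 3 enzymes listed as H3K36 demethylases fell. KDM2A, which binds unmethylated CpG islands, had 1175, 1438 and 1372 in DMSO and 582, 694 and 703 in IPI-9119 libraries (-1.01, SE 0.09, adjusted p 2.68e-07). KDM2B, which brings a variant of Polycomb repressive complex 1 to CpG islands, had 593, 631 and 627 against 325, 373 and 407 (-0.75, SE 0.09, adjusted p 6.80e-06). Neither overlapped between groups. KDM8, whose demethylase activity is debated, was the least abundant of the 44 per kilobase (13.3 in DMSO), with 28.6, 29.3 and 40.4 against 12.7, 26.2 and 19.8 (-0.76, SE 0.31, adjusted p 0.0458). DESeq2 did not call it (adjusted p 0.103). Nor was it called on leaving out DMSO replicate 1 (-0.84, adjusted p 0.0592), DMSO replicate 2 (-0.83, 0.065), IPI-9119 replicate 1 (-0.49, 0.172), IPI-9119 replicate 3 (-0.79, 0.0679) or DMSO replicate 3 (-0.60, 0.172), and 14.5% of its exons lie opposite an antisense gene.

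DOT1L, the H3K79 methyltransferase and the one writer here without a SET domain, had 163, 192 and 143 in DMSO and 26.4, 42.5 and 33.0 in IPI-9119 libraries (-2.27, SE 0.20, adjusted p 2.48e-07). Of the H4K20 enzymes, KMT5B, which makes the di- and trimethylated forms, had 1597, 1680 and 1627 against 914, 1048 and 1033 (-0.71, SE 0.06, adjusted p 3.35e-07). DOT1L and KMT5B thus each had separated groups. KMT5C, with the same activity, had 78.7, 73.6 and 65.2 against 56.9, 57.8 and 92.4 (-0.10, SE 0.21, adjusted p 0.685), and its IPI-9119 replicate 3 was the highest of the 6. KMT5A, the H4K20 monomethyltransferase, which is degraded in S phase, fell by 0.18 (SE 0.07, adjusted p 0.0346). It was not called by DESeq2 (adjusted p 0.0535), nor on leaving out DMSO replicate 2 (-0.14, adjusted p 0.147), DMSO replicate 3 (-0.20, 0.0535), IPI-9119 replicate 1 (-0.14, 0.0734) or IPI-9119 replicate 2 (-0.16, 0.107), nor with quantile scaling (adjusted p 0.0556).

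The last 3 genes carry a SET domain without an established histone mark. SETD5 had 855, 1121 and 857 in DMSO and 237, 357 and 379 in IPI-9119 libraries (-1.56, SE 0.18, adjusted p 6.40e-05). KMT2E, related to the MLL enzymes, had 868, 1101 and 1047 against 387, 486 and 507 (-1.13, SE 0.11, adjusted p 1.62e-06). Both were lower in each treated library than in any control. SETD3, which methylates a histidine of actin, was the second most abundant of the 44 per kilobase in DMSO (795) and had a value of -0.06 (SE 0.05, adjusted p 0.275).

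Paralogues were then compared within each library by the log2 ratio of their values, for 12 pairs. The ratio did not overlap between groups in 10 of the 12 pairs, and in 11 after the correction for length and GC content described below. Separation is common in these libraries, since the values of 33.9% of all genes were lower and of 34.0% higher without overlap. Those shares are of single genes, and no share was computed for ratios of other gene pairs. With 3 libraries a group the two-sided exact permutation test cannot go below p = 0.1, which these 10 reached (adjusted over the 12 pairs, p = 0.12), so none could pass the threshold. The largest shift was that of KDM6A to KDM6B, from 2.78 ± 0.32 to 7.28 ± 0.15 (SD, n = 3 each), which is 22.7-fold. EZH2 to EZH1 went from 1.06 ± 0.26 to 2.43 ± 0.37, a shift of 1.37. KMT2A to KMT2B moved from 1.91 ± 0.14 to 3.33 ± 0.28 (shift 1.42), and KMT2C to KMT2D from 1.14 ± 0.07 to 2.17 ± 0.17 (shift 1.04).

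Smaller shifts were those of NSD2 to NSD1 (0.59) and KDM3A to KDM3B (0.41), and, downward, of KMT5B to KMT5C (-0.61), EHMT1 to EHMT2 (-0.58), SUV39H1 to SUV39H2 (-0.55) and KDM2A to KDM2B (-0.26). In SUV39H1 to SUV39H2 both genes rose, and in EHMT1 to EHMT2, KDM2A to KDM2B and KDM3A to KDM3B both fell, by unequal amounts. The groups overlapped for KDM1A to KDM1B, with a shift of 0.03 (exact permutation test, p = 0.5), and for SETD1A to SETD1B, with a shift of -0.02 (exact permutation test, p = 0.9).

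**Figure D3:**
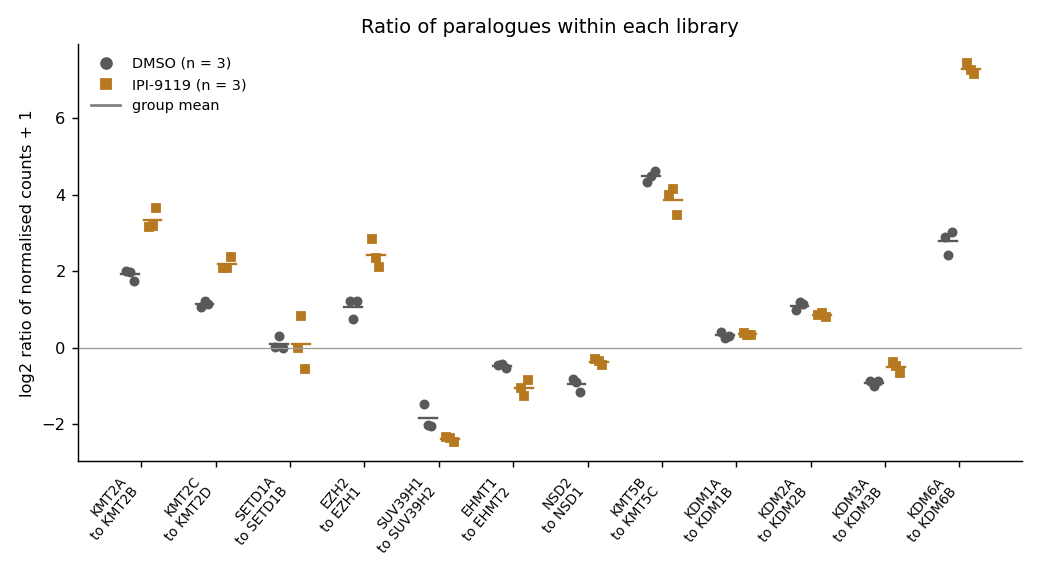
Log2 ratio of the normalised counts + 1 of 12 paralogue pairs (vertical axis) in each DMSO (circles) and IPI-9119 (squares) library, with a line at each group mean. The largest shift is that of KDM6A to KDM6B, from 2.78 to 7.28, and SETD1A to SETD1B and KDM1A to KDM1B are the pairs whose groups overlap.

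Partner subunits of these enzymes moved in both directions, as did all genes tested, of which 31.3% rose and 31.4% fell. Of 14 COMPASS partners, 3 rose, 7 fell and 4 did not pass the threshold (median -0.23). BOD1L1, which binds the SETD1A complex, went from 444, 574 and 394 in DMSO to 63.3, 36 and 48.4 in IPI-9119 libraries (-3.25, SE 0.20, adjusted p 1.43e-08). NCOA6, a subunit of the KMT2C and KMT2D complexes, fell by 2.84 and MEN1 (menin), which binds KMT2A and KMT2B, by 0.88. Of the core subunits shared by all 6 enzymes, WDR5 was at 0.09 (adjusted p 0.194) and RBBP5 at 0.005 (adjusted p 0.953), ASH2L fell by 0.27 and DPY30 rose by 0.42. The last 4 were named for their role in every COMPASS complex, after their values were seen. After the length and GC correction described below, 2 of the 14 partners were higher (30.7% of all genes) and 9 lower (34.1% of all genes). RBBP5 was then called lower (-0.21, adjusted p 0.00668) and DPY30 stood at 0.16 (adjusted p 0.0303). WDR5 was then at 0.005 (adjusted p 0.947) and ASH2L at -0.29 (adjusted p 0.000383).

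Of 9 PRC2 partners, 4 rose, 3 fell and 2 did not pass the threshold (median 0.07). JARID2 (-1.48) and AEBP2 (-1.31), accessory subunits of the PRC2.2 form, fell, and PHF19 (0.56), an accessory subunit of the PRC2.1 form, rose. After the length and GC correction described below, the counts were 1 higher (30.7% of all genes) and 3 lower (34.1% of all genes). Of 8 partners of the H3K9 enzymes, 1 rose and 4 fell, among them WIZ (-2.49), a zinc finger protein of the EHMT1 and EHMT2 complex, MPHOSPH8 (-1.90), a reader of methylated H3K9 in the HUSH complex, and TRIM28 (-0.57), which recruits SETDB1. With the correction WIZ stood at -1.35 and TRIM28 at -0.20.

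LSD1 and CoREST partners gave 1 rise and 5 falls of 8, with GSE1 at -2.97, PHF21A at -1.75 and RCOR1 at -0.55, while KDM1A itself did not pass the threshold. With the correction 2 of these partners were higher (30.7% of all genes) and 5 lower (34.1% of all genes), but not all were the same genes. HMG20B turned from lower (-0.22, adjusted p 0.000895) to higher (0.27, adjusted p 0.000307). HDAC1 went from 0.01, not past the threshold, to a called fall (-0.17, adjusted p 0.00348). Of the 4 DOT1L partners, MLLT1 (-2.59) and MLLT6 (-1.33) fell and the other 2 did not pass. Among 20 other SET-domain and JmjC genes, 5 rose (31.3% of all genes) and 7 fell (31.4% of all genes), with a median of 0.03. The largest changes were those of PHF2 (-1.63), PRDM2 (-1.50) and PRDM15 (-1.36). The correction gave 3 higher and 7 lower among the 20, and moved PRDM15 to -0.82 and MLLT6 to -0.37. These lists overlap in function with the 44 enzymes and share their libraries.

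The enzymes were next compared with genes of like length, since they are long. Their exonic length, all annotated exons merged, ran from 3368 to 31305 nt with a median of 9330 nt. In the 22 shorter enzymes, 13 fell, 3 rose and 6 did not pass the threshold (median -0.59), and of all genes between the same lengths 35.1% fell, with a median of -0.03. In the 22 longer enzymes, 19 fell, none rose and 3 did not pass (median -0.94), and of all genes of those lengths 47.3% fell, with a median of -0.21. All 3 enzymes that rose were among the shorter, at 3368 nt (SUV39H1), 3565 nt (SUV39H2) and 4522 nt (EZH2). Split by the longest coding transcript instead, the counts were the same, but the medians lay farther apart. They were -0.46 for the 22 shorter and -1.34 for the 22 longer enzymes, against -0.04 and -0.23 for all genes of those lengths.

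GC content of the longest annotated transcript went with the change as well. Of the 12 enzymes above 55% GC, 10 fell (median -2.11), against 41.0% of all 4001 such genes (median -0.14). The 4 enzymes of 6000 to 10000 nt and above 55% GC, KDM6B, SETD1A, SETD1B and EHMT2, all fell (median -2.95), against 59.6% of all genes there (median -0.47). The 5 above 10000 nt and above 55% GC, KMT2B, KMT2D, DOT1L, KDM4B and KDM2B, all fell too (median -2.27), against 70.4% of all genes there (median -0.87). Below 45% GC and above 10000 nt, 6 of 8 enzymes fell (median -0.55), against 38.5% of genes (median -0.10). In these 4 classes the enzymes' median was lower than that of the genes. The other direction was seen in the class of up to 6000 nt and below 45% GC, where 2 of 3 enzymes rose and none fell (median 0.58), against 40.4% of genes higher (median 0.13).

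Across the 44 genes, which share the 6 libraries and are not independent, the log2 fold change had a Pearson's r of -0.37 (Spearman's rho -0.40) with log2 exonic length, of -0.52 (rho -0.51) with the length of the longest coding transcript and of -0.53 (rho -0.44) with GC content. With genomic span r was 0.08 (rho -0.06), and with the mean level 0.39 (rho 0.42). Over all genes tested the r were -0.15, -0.23, -0.18, -0.03 and -0.04 in the same order. Genomic span and mean level were the measures whose r differed in sign between the enzymes and all genes. For genomic span rho had the same sign in both, at -0.06 for the enzymes and -0.035 for all genes.

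**Figure D4:**
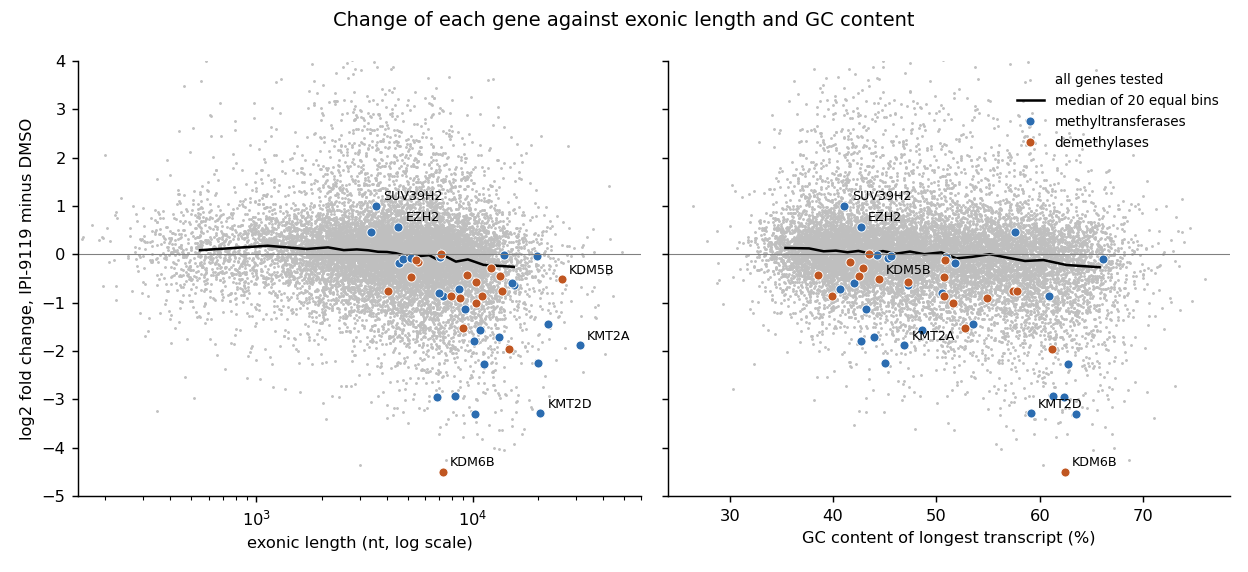
Log2 fold change (IPI-9119 minus DMSO, vertical axis) of every gene tested (grey) against exonic length (left, log scale) and GC content of the longest transcript (right), with the median of 20 equal bins (line) and the 44 enzymes coloured by class. The bin median falls with both measures, and most enzymes lie below it, KDM6B (-4.49) the farthest.

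A correction that subtracts, in each library, the trend of all genes with exonic length and GC content was then applied. After it 33 enzymes were called lower (34.1% of all genes) and 6 higher (30.7% of all genes), and 5 did not pass, with a median of -0.50 (all genes -0.03). Of the 32 falls called without it, 30 were called after it. Falls of 1 log2 unit or more numbered 13. The H3K4 methyltransferases other than SETD7 all stayed lower, with a median of -2.12: SETD1A at -2.27, KMT2B at -2.18, SETD1B at -2.14, KMT2D at -2.10, KMT2C at -1.85 and KMT2A at -1.12. KDM6B was at -3.75 (SE 0.16, adjusted p 2.58e-12). The correction did not remove the association with length and GC content within the 44 enzymes. Pearson's r of the corrected change was -0.23 with log2 exonic length, -0.48 with the longest coding transcript and -0.34 with GC content. Over all genes tested r with the longest coding transcript was then -0.11.

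In 14 of the 35 called enzymes the correction made the change smaller by more than 1.5 times. KDM4B went from -1.95 to -0.73, DOT1L from -2.27 to -1.13, EHMT1 from -1.44 to -0.63 and EHMT2 from -0.86 to -0.20 (adjusted p 0.0456). NSD1 was then at -0.21 (adjusted p 0.0215) and KDM5C at -0.42 (adjusted p 0.00174). KDM2A went from -1.01 to -0.59 (adjusted p 3.7e-07) and KDM4C from -0.57 to -0.35 (adjusted p 0.00609). Calls were lost for KDM2B (0.15, adjusted p 0.111) and KDM5B (-0.08, adjusted p 0.264). SETD2 (-1.73), ASH1L (-1.51), KMT2E (-1.09), JMJD1C (-0.86) and KMT5B (-0.76) moved by less than 0.2.

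Of the enzymes not past the threshold without the correction, KMT5C (0.58, adjusted p 0.0153), NSD2 (0.39, adjusted p 0.000155) and SETD7 (0.21, adjusted p 0.00104) were called higher after it, and KDM1B (-0.33, adjusted p 0.000311), SETD3 (-0.21, adjusted p 0.00121) and KDM1A (-0.14, adjusted p 0.027) lower. The 3 rises were still called, SUV39H2 at 0.74 (adjusted p 4.46e-07), SUV39H1 at 0.42 (adjusted p 0.0242) and EZH2 at 0.36 (adjusted p 0.000443). Among the pairs, KMT2C to KMT2D shifted by 0.25 in place of 1.04, KMT5B to KMT5C by -1.33 in place of -0.61 and KDM2A to KDM2B by -0.74 in place of -0.26, while KDM6A to KDM6B (3.71), EZH2 to EZH1 (1.02) and KMT2A to KMT2B (1.07) kept their direction and separation.

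**Figure D5:**
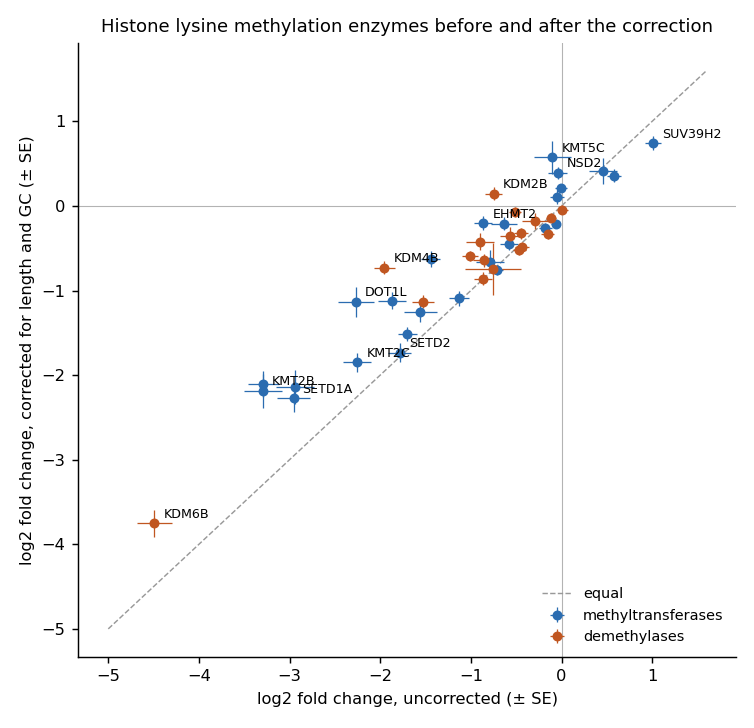
Log2 fold change of the 44 enzymes without (horizontal axis) and with (vertical axis) the correction for exonic length and GC content, with SE bars and a dashed line of equality. KDM6B (-3.75) and the H3K4 methyltransferases other than SETD7 (-2.27 to -1.12) stay below -1, while KDM4B moves from -1.95 to -0.73 and KDM2B from -0.75 to 0.15.

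Libraries within a group differed in the level of these enzymes. The second DMSO library had the highest value of its group for 31 of 44 enzymes (36.5% of all genes), and the first the lowest for 30 (35.2% of all genes). The first IPI-9119 library had the lowest value of its group for 37 of 44 (41.3% of all genes), with a median log2 distance of -0.19 from the group mean. Leaving out each library in turn gave 30 to 33 falls and 2 or 3 rises among the 44, and 30 of the 32 falls, all but KDM8 and KMT5A, were called in every such fit.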

How the data were processed

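PolyA-selected RNA of 3 IPI-9119 and 3 DMSO libraries of C4-2 cells was measured by sequencing. The deposited values are a signal. They behave as the authors' counts per gene scaled by 1 factor per library: dividing each value by that of a single read (0.894 to 1.10) gave whole reads for 100% of values within 0.01 read. Per the submitters' processing notes, which give neither role nor order, the tools were Subread 1.5.2, featureCounts, STAR 2.5.2b, Trimmomatic 0.36 and DESeq2, with the build GRCh38. Which annotation release was used and whether counting used strand are not given in the sources used here. Longer and more abundant transcripts have more reads and are measured more precisely. Between libraries of a group the chi-square per degree of freedom was 2.31 to 9.76, above sampling noise, and each library was taken as 1 sample.

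The test was limma 3.58.1 (R 4.3.3; trend and robust moderation) on log2(value + 1), for genes with a mean of at least 10, two-sided, with Benjamini-Hochberg adjusted p under 0.05 called. It called 9061 of 14437 genes. As count tests of those whole reads, edgeR 4.0.16 (its quasi-likelihood test) called 4479 genes higher and 4602 lower, and DESeq2 1.42.0 called 4238 and 4222. Positions, lengths, GC content and overlaps came from GENCODE 29. Levels per kb use the longest coding transcript. The correction subtracts per library a spline in log2 exonic length and GC percent with their interaction (4 degrees of freedom per term) fitted to the log2 deviations. The fit was run on simulated counts with known changes. For the correction, the simulated trend was in length only, so its GC part and the interaction were not tested. The motif search was run on short made sequences.

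The enzymes, partner lists, pairs, rule and tests were chosen with earlier results of these data known, and so was the correction. Every enzyme is named, with values per library where it was called with a log2 fold change of at least 0.58 in size or belongs to a pair. Of each partner and marker list the 3 called genes with the largest change are named, except 1 that is not reported here. Further settings were other pseudocounts (0.5 and 8), TMM and quantile scaling, a replicate block, a minimum mean of 50 or none, no trend and no robust moderation, and leaving out each library in turn. Corrections for length alone and GC alone were chosen after seeing the data.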

Additional observations from a re-analysis of the deposited data

How the results depend on the processing

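Of the 44 calls, 43 were the same by edgeR, 41 by DESeq2 and 44 with TMM scaling. None of these 44 calls turned to the opposite direction in any setting run. That of the partner gene HMG20B did so with the length and GC correction. The count of enzymes called higher moved from 3 to 6 with the length and GC correction, to 6 with that correction and the replicate block, and to 6 with the length correction alone. For methyltransferases it was 6, 6 and 5, and for demethylases it was 1 with the length correction alone. The labels do not say whether the replicate numbers pair the libraries. Same-numbered libraries had correlations of deviations of 0.341, 0.182 and -0.026, and not every library correlated best with its own number. These values cannot settle whether the libraries were paired, because the 3 deviations from a group mean depend on each other. With the replicate block 4797 genes were called higher and 4799 lower, and KDM5A (adjusted p 0.00109), KDM1B (0.0206) and KDM1A (0.0426) were called lower besides the 32.

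Directions that turned were mostly of values not past the threshold, and their cause was not tested. With the length and GC correction, with or without the block, the log2 fold change was 0.15 for KDM2B, 0.58 for KMT5C, 0.10 for SETDB1, 0.39 for NSD2, 0.21 for SETD7 and -0.043 for KDM6A. With length alone it was 0.0048 for KDM5A, 0.063 for SETDB1, 0.38 for NSD2 and 0.33 for SETD7, and with GC alone 0.28 for KMT5C and -0.10 for KDM6A. Quantile normalization gave 0.039 for SETDB1 and 0.023 for NSD2. Leaving out each library gave -0.33 to 0.016 for KMT5C, -0.10 to 0.074 for NSD2, -0.052 to 0.073 for SETD7 and -0.044 to 0.070 for KDM6A, and shifts of the log2 ratio between groups of -0.39 to 0.31 for SETD1A to SETD1B and -0.0029 to 0.083 for KDM1A to KDM1B. KDM3A was not called with length alone (-0.12, adjusted p 0.12). The fewest reads in a group were the 41 of KMT2B and the 54 of KDM8 in IPI-9119, which limits their precision. With genomic span in place of exonic length, 15 of the 22 shorter and 17 of the 22 longer enzymes fell.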
